A study of Mus musculus with 7 samples.

Results

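The respiratory chain genes described here encode nuclear subunits of complexes II, III, IV and V of the inner mitochondrial membrane, together with cytochrome c. Members were taken by gene symbol alone, as all genes of the array's platform annotation named Sdha to Sdhd, Cyc1 or Cycs or starting with Uqcr, Cox4 to Cox8 or Atp5, which gave 49 of 22180 genes that had a probe set of their own. The members comprise 4 genes of complex II, 9 of complex III, 1 for cytochrome c, 17 of complex IV and 18 of complex V, and 2 of them (Uqcrh-ps1 and Atp5c1-ps) are pseudogenes. Uqcr10 and Cox6c had only probe sets shared with a second gene and are not counted as members.

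RNA of pancreatic islets from mice aged 2 months was hybridised to 7 whole-transcript arrays, each a pool of 3 mice. The 3 control arrays held islets of Gata6 flox/flox mice. The 4 others, labelled Gata6 KO, held islets of Gata6 flox/flox;Pdx1-Cre mice, in which Cre is driven by the promoter of Pdx1, a gene expressed throughout the early pancreatic epithelium and later mainly in beta cells. Floxed alleles are common to both groups and Cre is carried by one group only, so an effect of Cre and one of Gata6 cannot be told apart. The comparison asks how islet gene expression differs when the transcription factor Gata6 is targeted.

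Electrons from succinate enter the chain at complex II (succinate dehydrogenase) and reach complex III (the cytochrome bc1 complex) through ubiquinone. Cytochrome c, a small soluble heme protein between the membranes, carries them on to complex IV (cytochrome c oxidase), which reduces oxygen. Complex V (ATP synthase) uses the proton gradient to make ATP, and in beta cells the resulting rise in ATP closes KATP channels and triggers insulin release.

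Of the respiratory chain members, 23 were higher and 3 were lower in islets labelled Gata6 KO, out of 49 (limma, p adjusted by Benjamini-Hochberg over all genes, threshold 0.05). Over all 22180 genes 17.4% were called higher and 7.36% lower, and 37.3% had an unadjusted p under 0.05 in either direction. Cycs, Cox5a, Cox6b1, Atp5pb and Atp5mpl were among those that rose most. The cytochrome c oxidase genes Cox6a2, Cox8a and Cox6a1 fell. Higher calls numbered 19 to 23 with any single array left out. Lower calls numbered 1 without control array 1 and 1 without array 2 labelled Gata6 KO, where Cox6a2 remained, and up to 4. The groups did not overlap, with all values labelled Gata6 KO above all control values, for 28 members, against 24.4% of all genes, and with all values below for 3, against 9.96% of all genes.

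All genes together had a median log2 difference of 0.17. Each change below is a gene's log2 difference with that median subtracted, given beside the SE and adjusted p of its unshifted value. Relative to all genes the members' median change was 0.44. By complex the medians were 0.13 for complex II, 0.50 for complex III, 0.29 for complex IV and 0.45 for complex V. After centring each array on its median 16 members were called higher and 5 lower, so that 76.2% of the members' calls were higher, against 88.5% as deposited. Over all genes that share was 38.1% after centring and 70.2% as deposited. A repeated quantile normalization gave 17 members higher and 7 lower, or 70.8% and, over all genes, 41.1%.

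**Figure D1:**
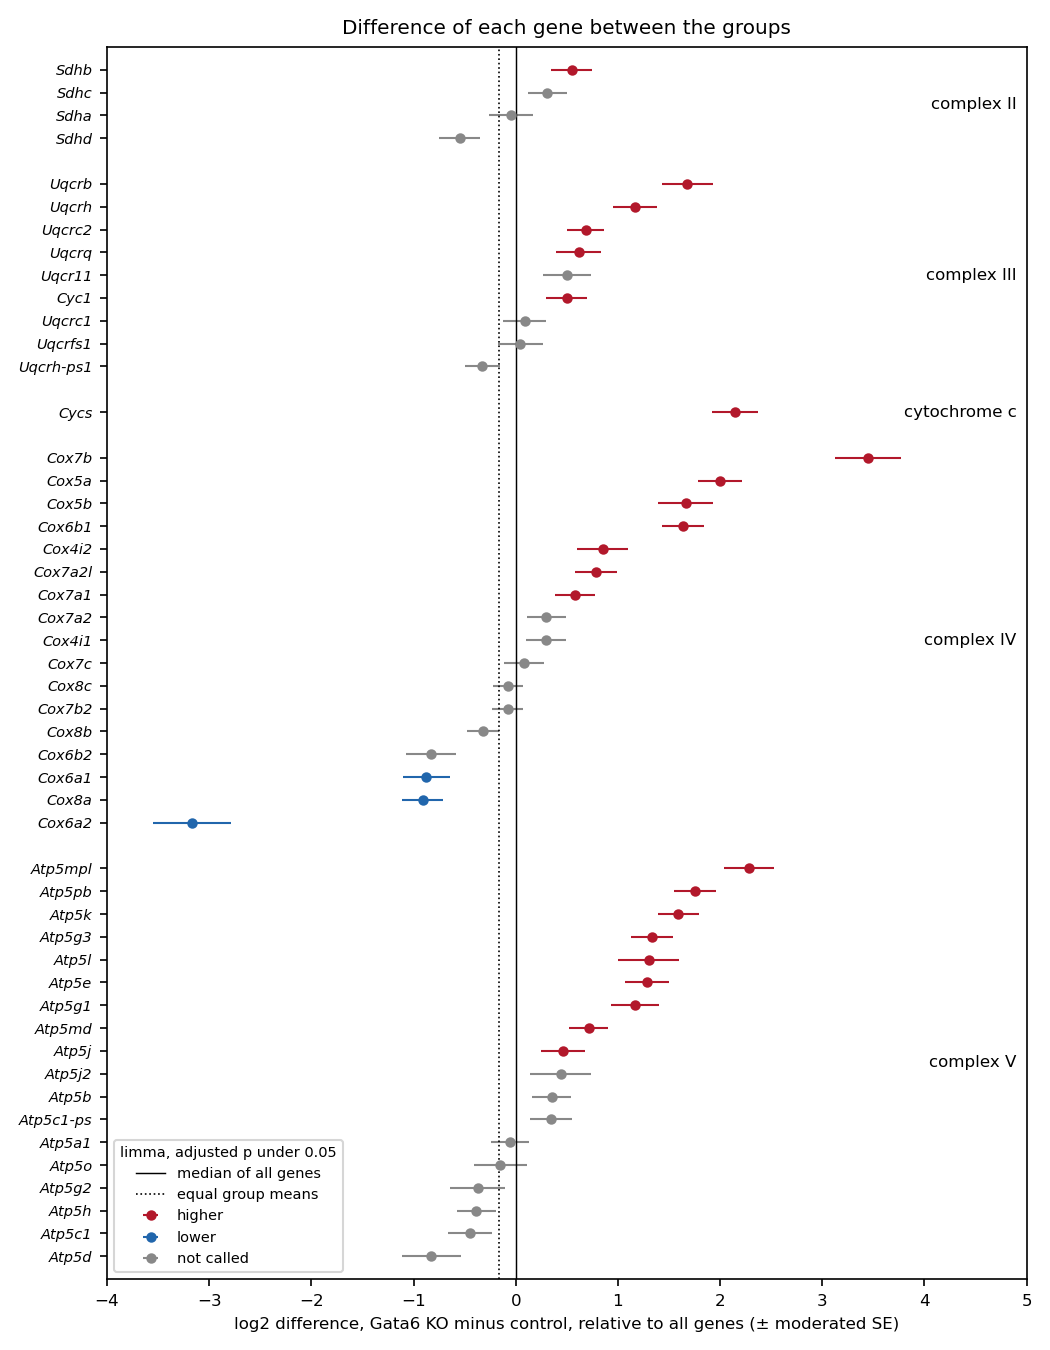
Log2 difference between the groups for each of the 49 members, minus the median of all genes, with moderated SE bars, ordered within complex; colour gives limma's call. The dotted line marks equal group means. Complex IV holds both ends of the range, from Cox6a2 at -3.17 to Cox7b at 3.45. The Cox7b value is from a probe set that is high under the Gata6 KO label only. Its other probe set was not called (unshifted difference -0.35).

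The series as a whole sets limits on these values. Gata6 itself gave 4.60, 4.80 and 4.83 in controls and 5.41, 5.35, 5.34 and 5.01 under the Gata6 KO label, so its signal was not lower under that label (unshifted difference 0.54, adjusted p = 0.0622, limma). The sources used here do not say where the Gata6 probes lie relative to the floxed exons, so this may check nothing. Marker genes of the islet and of other cell types were counted too, beside 17.4% of all genes called higher and 7.36% lower. The list means given here are unshifted. In the islet endocrine list 10 of 10 genes fell, and the mean of that list ran from 9.21 to 9.77 in controls and from 5.55 to 7.55 on the others. Of 13 acinar genes 8 rose, with list means from 9.77 to 9.86 and from 10.70 to 10.84. Of 7 mesenchymal genes 6 rose, from list means of 2.69 to 3.48 to means of 3.49 to 5.58. In the lymphoid list 3 of 6 genes rose (list means 1.73 to 1.89 and 2.49 to 3.40), and in the macrophage list 1 of 6 (3.05 to 3.43 and 2.97 to 4.65). Of 7 endothelial genes 3 fell (4.76 to 5.14 and 3.98 to 4.72), and of 5 ductal genes 1 rose and 1 fell (3.85 to 4.39 and 4.16 to 4.47). The macrophage count lies near the share of all genes. Relative to all genes the median change was -2.55 for endocrine, 0.78 for acinar, 1.52 for mesenchymal and 0.76 for lymphoid genes. For macrophage, endothelial and ductal genes it was -0.05, -0.63 and 0.24. Mitochondria are present in all of these cell types, and the part of such shifts in the members' differences was not tested. In whole islets fewer cells of a type and less RNA per cell cannot be told apart.

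Promoter sequences of 4 members are shown because nuclear respiratory genes are known to share binding motifs of NRF1 and of ETS factors such as GABP, and because these 4 moved in both directions. The 250 bases upstream of the start site are from RefSeq (GRCm38.p6), written on the gene's strand, and the capitals mark every match of the motifs searched. Cycs and Atp5l rose and held the NRF1 letters, Cox6a1 fell and held them too, and Cox5a rose with none of the 5 motifs.
Cycs, chr6:50566570-50566819 (minus strand): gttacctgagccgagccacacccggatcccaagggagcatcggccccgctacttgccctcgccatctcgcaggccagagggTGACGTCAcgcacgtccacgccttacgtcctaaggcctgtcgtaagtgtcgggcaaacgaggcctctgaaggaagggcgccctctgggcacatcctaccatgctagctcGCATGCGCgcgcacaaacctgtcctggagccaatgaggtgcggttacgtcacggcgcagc
Atp5l, chr9:44920743-44920992 (minus strand): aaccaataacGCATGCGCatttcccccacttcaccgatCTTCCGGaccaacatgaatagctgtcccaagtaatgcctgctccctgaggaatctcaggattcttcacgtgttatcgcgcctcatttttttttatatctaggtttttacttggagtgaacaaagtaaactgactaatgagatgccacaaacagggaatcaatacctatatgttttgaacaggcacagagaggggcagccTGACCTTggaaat
Cox6a1, chr5:115348959-115349208 (minus strand): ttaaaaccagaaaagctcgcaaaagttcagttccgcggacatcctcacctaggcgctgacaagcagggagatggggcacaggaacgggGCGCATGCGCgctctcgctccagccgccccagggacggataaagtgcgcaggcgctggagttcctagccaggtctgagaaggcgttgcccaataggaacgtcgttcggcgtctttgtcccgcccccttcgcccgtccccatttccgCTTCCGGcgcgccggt
Cox5a, chr9:57520982-57521231 (plus strand): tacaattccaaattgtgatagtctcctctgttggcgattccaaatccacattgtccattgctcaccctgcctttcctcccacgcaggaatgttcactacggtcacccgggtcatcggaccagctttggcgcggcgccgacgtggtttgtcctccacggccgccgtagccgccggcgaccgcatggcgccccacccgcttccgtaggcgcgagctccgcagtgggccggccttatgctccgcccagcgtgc

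In the Cycs window the capitals are a CRE match (TGACGTCA) 169 to 162 bases before the start and an NRF1 match 60 to 53 bases before it. Atp5l carries an NRF1 match, an ETS match and, 13 to 7 bases before the start, the ERR letters. Cox6a1 has NRF1 letters that read the same on both strands, so that a pair of matches overlaps, and an ETS match 16 to 10 bases before the start. The motifs were searched on both strands as GCGCATGC (NRF1), CCGGAAG (ETS), AAGGTCA (ERR), AAGATGG (YY1) and TGACGTCA (CRE). No match in these windows overlapped one of another motif. Of the members 36 had a window in the table. The NRF1 letters were in 6 of them (16.7%), against 3.32% of 17491 protein-coding genes, and the ETS letters in 9 (25%), against 10.2%. ERR letters stood in 2 (Atp5g3 and Atp5l), CRE letters in 2 (Cycs and Uqcrfs1) and YY1 letters in 1 (Atp5j), against 4.18%, 2.2% and 4.77% of protein-coding genes. Among members that rose, 4 of 17 held the NRF1 letters (Atp5k, Atp5l, Cycs and Sdhb) and 5 the ETS letters. Among members that were not called, 1 and 3 of 17 did. Among members that fell, 1 of 2 with a window held the NRF1 letters and 1 the ETS letters, Cox6a1 in both cases. These counts are small and describe letters in these windows only.

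In complex II 1 of 4 genes rose, beside 17.4% of all genes called higher. Sdhb, the iron-sulfur subunit that passes electrons on from the flavin, measured 4.48, 4.63 and 4.81 in controls and 5.57, 5.36, 5.08 and 5.42 under the Gata6 KO label. All values labelled Gata6 KO lay above the control values, and the change was 0.55 (SE 0.20, adjusted p = 0.0203). After centring its adjusted p was 0.160, and after a repeated quantile normalization 0.0629. Leaving out control array 1 also ended this call (adjusted p = 0.0936), as did leaving out control array 2 (adjusted p = 0.0706). Sdha, the flavoprotein that oxidises succinate, gave 6.78, 6.73 and 6.72 in controls and 7.27, 6.98, 6.42 and 6.78 under the Gata6 KO label. The ranges of Sdha overlapped and its change was -0.05. Its unshifted difference of 0.12 did not pass (adjusted p = 0.732, limma). Sdhc and Sdhd anchor the enzyme in the membrane. Sdhc measured 5.48, 5.12 and 5.39 in controls and 5.80, 5.85, 5.74 and 5.83 under the Gata6 KO label, with a change of 0.31 (SE 0.19, adjusted p = 0.0816). Sdhd measured 5.58, 5.24 and 5.64 in controls and 5.28, 5.24, 4.89 and 5.01 under the Gata6 KO label. Its change was -0.55 (unshifted difference -0.38, SE 0.20, adjusted p = 0.186, limma). The anchors' changes had opposite signs and neither passed the test. Sdhd passed as lower after a repeated quantile normalization (unshifted difference -0.61 there, adjusted p = 0.0306).

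In complex III 5 of 9 genes rose and 0 fell, beside 17.4% of all genes called higher and 7.36% lower. The unadjusted p (limma) was under 0.05 for 6, all of them with higher values, beside 37.3% of all genes in either direction. Uqcrb, a small subunit near the ubiquinone site, measured 6.86, 6.78 and 6.07 in controls and 8.66, 8.72, 8.36 and 7.91 under the Gata6 KO label. Control array 3 was the lowest of its group, the lowest array labelled Gata6 KO was array 4, and the change was 1.68 (SE 0.25, adjusted p = 0.000149). A second probe set of Uqcrb, shared with the gene model Gm10767, gave 1.99, 2.26 and 2.43 in controls and 1.51, 2.45, 2.22 and 1.05 under the Gata6 KO label and did not follow it. Uqcrh, the hinge protein that helps cytochrome c dock, measured 5.50, 5.64 and 5.66 in controls and 6.79, 6.80, 7.45 and 6.69 under the Gata6 KO label. Array 3 labelled Gata6 KO stood highest for Uqcrh, and the change was 1.17 (SE 0.22, adjusted p = 0.000632). The pseudogene Uqcrh-ps1 stayed between 0.76 and 1.34 on all arrays.

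The core protein gene Uqcrc2 measured 6.23, 6.25 and 6.13 in controls and 7.24, 7.09, 6.98 and 6.91 under the Gata6 KO label. Within each group its values spanned less than 0.4 and the change was 0.68 (SE 0.18, adjusted p = 0.00431). Its partner Uqcrc1 measured 6.82, 6.99 and 6.39 in controls and 7.01, 6.99, 6.69 and 7.25 under the Gata6 KO label, with overlapping ranges and a change of 0.09 (adjusted p = 0.414, limma). Of the redox subunits, Cyc1, which carries heme c1, measured 4.58, 5.07 and 4.82 in controls and 5.55, 5.55, 5.35 and 5.49 under the Gata6 KO label. Its groups did not overlap and the change was 0.50 (SE 0.20, adjusted p = 0.0258). Uqcrfs1, the Rieske iron-sulfur protein, measured 4.06, 3.94 and 4.04 in controls and 4.71, 4.11, 3.93 and 4.14 under the Gata6 KO label and its change of 0.05 did not pass (adjusted p = 0.524, limma). The small subunit Uqcrq measured 3.40, 3.50 and 3.59 in controls and 4.50, 4.46, 4.35 and 3.82 under the Gata6 KO label, with array 4 the lowest of its group and a change of 0.62 (SE 0.22, adjusted p = 0.0191). Uqcr11, another small subunit, gave 4.38, 4.14 and 4.51 in controls and 4.52, 5.16, 5.45 and 4.91 under the Gata6 KO label. Its adjusted p of 0.0547 (limma) missed the threshold, which it passed without array 1 labelled Gata6 KO (adjusted p = 0.0183). Without control array 1 the calls of Cyc1 (adjusted p = 0.128) and Uqcrq (adjusted p = 0.08) were lost. The same happened to Cyc1 without control array 3 or array 2 labelled Gata6 KO, and to Uqcrq without control array 2 or array 2 labelled Gata6 KO. After centring, Uqcrb and Uqcrh were the complex III genes still called, and Uqcrc2, Uqcrq and Cyc1 had adjusted p of 0.0612, 0.137 and 0.196.

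Cytochrome c is encoded by Cycs, and its protein also triggers caspase activation when it is released from mitochondria. Its most intense probe set measured 4.71, 5.08 and 4.41 in controls and 7.20, 7.11, 7.20 and 6.67 under the Gata6 KO label. Every value labelled Gata6 KO was at least 1.5 above every control value, and the change was 2.15 (SE 0.22, adjusted p = 1.07e-05), or 4.43-fold. Array 4 was the lowest of its group. The call held in all 19 alternatives, with unshifted differences from 1.71 to 2.48.

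The array holds 5 probe sets named Cycs, and they did not move alike. In the fit over all probe sets, the probe set with the lowest signal gave 0.93, 1.58 and 1.05 in controls and 4.97, 4.46, 4.36 and 4.10 under the Gata6 KO label, with an unshifted difference of 3.28, SE 0.26, adjusted p = 0.000215. A pair of probe sets with identical values on every array gave 2.57, 2.65 and 2.72 in controls and 3.92, 4.07, 4.83 and 3.65 under the Gata6 KO label (1.47, SE 0.28, adjusted p = 0.00846). The remaining one gave 2.42, 2.56 and 2.47 in controls and 2.70, 2.62, 2.44 and 2.21 under the Gata6 KO label and did not differ beyond its spread (0.01, SE 0.20, adjusted p = 0.981). Cycs has many processed pseudogenes in mammalian genomes, and which copy each probe set reads was not tested.

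**Figure D2:**
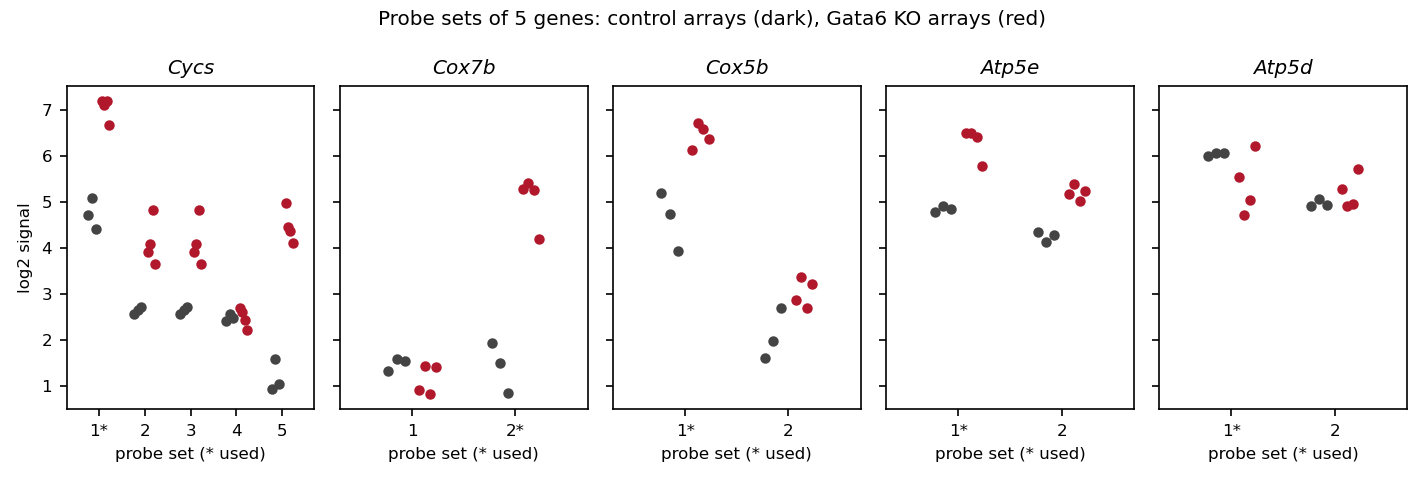
Log2 signal on each array for every probe set of Cycs, Cox7b, Cox5b, Atp5e and Atp5d, numbered by control mean; an asterisk marks the one used. For Cycs, Cox7b and Cox5b 1 probe set shows overlapping groups (barely so for Cox5b) while another separates them. The Cox7b probe set used has a control mean of 1.42 and a mean of 5.03 on the arrays labelled Gata6 KO.

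Over the 7 arrays, the genes whose values correlated most with Cycs were the small RNA genes Rny1, Snord69, Snora34 and Snord58b and the protein-coding gene Sat1, with Pearson r from 0.9973 to 0.9990. These correlations rest on the 2 groups, and each of these 5 genes was itself called higher. Rny1 encodes a small noncoding Y RNA, Snord69, Snord58b and Snora34 encode small nucleolar RNAs, and Sat1 encodes the polyamine-degrading enzyme spermidine/spermine acetyltransferase. Snora34 changed by 5.05 (SE 0.35, adjusted p = 1.44e-06) and Rny1 by 4.03 (SE 0.27, adjusted p = 1.24e-06). Within the respiratory chain Atp5pb (r = 0.989), Cox7b (r = 0.986), Cox6b1 (r = 0.985), Uqcrc2 (r = 0.984) and Atp5md (r = 0.980) were nearest to Cycs.

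Complex IV was, as deposited, the only one of these complexes with calls both ways, 7 higher and 3 lower of 17 genes. After centring, complex V had calls both ways too, with Atp5d lower (adjusted p = 0.0404, limma). The same held after a repeated quantile normalization (adjusted p = 0.0267 for Atp5d, limma). Over all genes 17.4% were called higher and 7.36% lower. Whether complex IV differs from the others was not tested. The nuclear subunits of complex IV surround a mitochondrially encoded core. Among 9 subunits of the common form, 4 rose and 2 fell. Cox5a, which binds thyroid hormone metabolites and regulates the enzyme, measured 4.15, 4.55 and 4.13 in controls and 6.82, 6.20, 6.33 and 6.41 under the Gata6 KO label. The highest control value lay more than 1.5 below the lowest value labelled Gata6 KO, and the change was 2.00 (SE 0.22, adjusted p = 1.41e-05). Cox6b1, which bridges the dimer on the intermembrane side, measured 4.70, 4.83 and 4.32 in controls and 6.45, 6.56, 6.27 and 6.39 under the Gata6 KO label. Both groups were tight and the change was 1.64 (SE 0.20, adjusted p = 3.31e-05). The zinc-binding subunit Cox5b measured 5.19, 4.73 and 3.94 in controls and 6.12, 6.72, 6.58 and 6.37 under the Gata6 KO label. Control array 3 was its lowest value, the change was 1.66 (SE 0.27, adjusted p = 0.000335), and without that array the unshifted difference was 1.49. A dimmer second Cox5b probe set gave 1.59, 1.97 and 2.69 in controls and 2.86, 3.36, 2.69 and 3.21 under the Gata6 KO label, with touching ranges and an unshifted difference of 0.94, SE 0.29, adjusted p = 0.058.

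Cox7b, a small membrane subunit, showed the highest change of all members and also the sharpest conflict between probe sets. The one used measured 1.94, 1.49 and 0.84 in controls and 5.29, 5.41, 5.25 and 4.19 under the Gata6 KO label, with a change of 3.45 (SE 0.32, adjusted p = 5.88e-06). The other gave 1.33, 1.59 and 1.55 in controls and 0.91, 1.43, 0.81 and 1.41 under the Gata6 KO label, with overlapping groups and an unshifted difference of -0.35, SE 0.21, adjusted p = 0.299. Probe sets were chosen by their mean over all arrays, which here favoured the one that is high in one group. With the mean of both probe sets the unshifted difference of Cox7b was 1.63 (adjusted p = 0.000171, limma).

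The ubiquitous subunit Cox8a measured 8.73, 8.35 and 8.29 in controls and 7.86, 7.38, 7.62 and 7.97 under the Gata6 KO label. All its values labelled Gata6 KO were below the control values, and the change was -0.91 (SE 0.20, adjusted p = 0.0163). Cox6a1, the widely expressed form of subunit VIa, measured 10.93, 10.78 and 11.14 in controls and 10.37, 9.71, 10.06 and 10.84 under the Gata6 KO label. Its array 4 labelled Gata6 KO lay within the control range, and the change was -0.87 (SE 0.23, adjusted p = 0.0404). The call of Cox6a1 was lost on leaving out any of the 3 control arrays or arrays 1, 2 or 3 labelled Gata6 KO (adjusted p from 0.00106 to 0.214 over all alternatives). That of Cox8a ended on leaving out control array 1 (adjusted p = 0.0957) or array 2 labelled Gata6 KO (adjusted p = 0.0574). Both kept their direction in every alternative run.

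Cox4i1, a regulatory subunit, measured 6.17, 6.57 and 6.30 in controls and 7.01, 6.81, 6.61 and 6.80 under the Gata6 KO label. Cox7a2 measured 5.96, 6.02 and 5.97 in controls and 6.76, 6.38, 6.33 and 6.35 under the Gata6 KO label. For both genes all values labelled Gata6 KO were above the control values, yet their changes of 0.29 and 0.30 did not pass (adjusted p = 0.0984 and 0.0908, limma). Cox7c, a small membrane subunit, stayed between 0.81 and 1.73 on all arrays and did not pass (adjusted p = 0.393, limma). Cox7a2l, which links complexes III and IV into supercomplexes, measured 4.40, 4.10 and 4.24 in controls and 4.95, 5.12, 5.23 and 5.49 under the Gata6 KO label. Its groups did not overlap and the change was 0.79 (SE 0.21, adjusted p = 0.00431). Cox6c, reached only through probe sets shared with Gm6265, gave 6.45, 6.54 and 6.35 in controls and 7.66, 7.53, 7.35 and 7.72 under the Gata6 KO label on the brighter one, with an unshifted difference of 1.12, SE 0.18, adjusted p = 0.00361.

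Tissue-restricted isoforms of complex IV included the deepest fall. Cox6a2, the form of subunit VIa typical of heart and skeletal muscle, measured 7.28, 7.05 and 5.91 in controls and 2.85, 4.26, 3.47 and 4.38 under the Gata6 KO label. The groups were separated by more than 1.5 log2 units, and the change was -3.17 (SE 0.38, adjusted p = 8.69e-05), or 8.99-fold lower. The call held in all 19 alternatives. Markers of striated muscle were low throughout, with list means from 1.89 to 2.00 on the control arrays and from 2.05 to 2.47 on the others, and 3 of 9 rose and 0 fell (unadjusted p under 0.05 for 3). Endocrine marker genes fell on the same arrays. The part of either list in the fall of Cox6a2 was not tested.

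Other restricted forms had low signals. Cox4i2, a form found mainly in lung and in vascular mural cells, measured 1.45, 1.41 and 1.87 in controls and 2.75, 2.92, 2.70 and 1.99 under the Gata6 KO label, with a change of 0.85 (SE 0.25, adjusted p = 0.00874). Cox7a1, the muscle form of subunit VIIa, measured 1.23, 1.09 and 0.86 in controls and 1.60, 1.72, 2.14 and 1.75 under the Gata6 KO label, with a change of 0.58 (SE 0.19, adjusted p = 0.0125). Both rose from low signals. Mesenchymal markers and the striated muscle markers given above (Ckm, Tnnt3 and Myh6 rose, 6 were not called) had higher list means there too. Brown adipocyte markers did as well (1.46 to 1.52 and 1.84 to 2.07, 2 of 6 genes rose). These list means are unshifted. Relative to all genes the median change was 1.52 for the mesenchymal list, -0.01 for striated muscle and 0.08 for brown adipocytes. The part of these lists in the rises of Cox4i2 and Cox7a1 was not tested. Without control array 3 the call of Cox7a1 was lost (adjusted p = 0.0686), and the same happened on centring (adjusted p = 0.0741). Cox6b2, a testis form, measured 2.08, 2.15 and 2.95 in controls and 1.42, 1.90, 1.71 and 1.91 under the Gata6 KO label and did not pass (adjusted p = 0.0629, limma), though it passed as lower after centring (adjusted p = 0.013). Of the other testis forms, Cox7b2 measured 0.81, 0.63 and 0.66 in controls and 0.98, 0.60, 0.94 and 0.62 under the Gata6 KO label, and Cox8c measured 0.91, 0.96 and 0.84 in controls and 1.08, 0.85, 1.06 and 0.99 under the Gata6 KO label. The muscle form Cox8b measured 1.17, 1.01 and 1.22 in controls and 0.90, 0.82, 1.00 and 1.19 under the Gata6 KO label. All these values lay between 0.60 and 1.22, and none of the 3 genes passed (adjusted p from 0.493 to 0.712, unadjusted p from 0.329 to 0.572, limma).

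**Figure D3:**
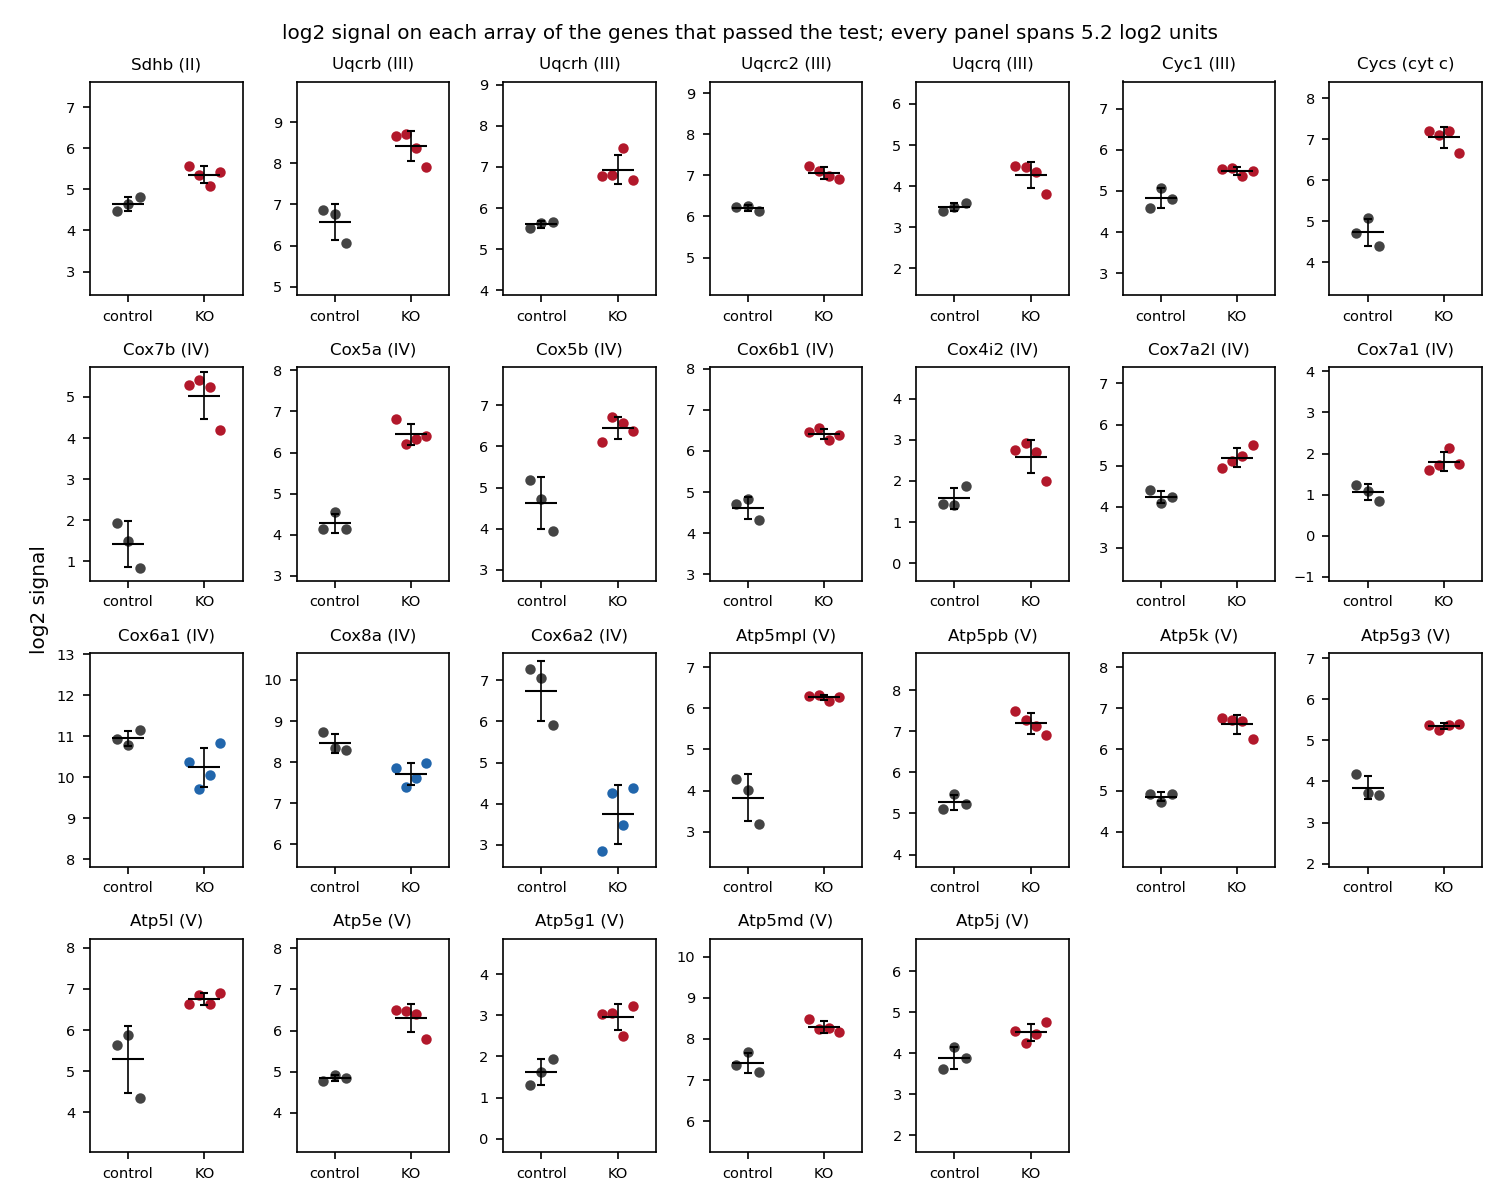
Log2 signal on each array for the 26 members that passed the test, with group mean and SD (bars); colour gives the direction of the call, and all panels span the same range of log2 units. Array 4 is the lowest of the arrays labelled Gata6 KO for 11 of the 23 members that rose.

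In complex V 9 of 18 genes rose and 0 fell, beside 17.4% of all genes called higher and 7.36% lower. The unadjusted p (limma) was under 0.05 for 12, of which Atp5d alone had lower values, beside 37.3% of all genes in either direction. The rises were spread unevenly over the parts of the enzyme: 4 of 5 small membrane subunits, 2 of 3 c-ring genes, 2 of 4 genes of the peripheral stalk and 1 of 5 of the catalytic F1 part. The F1 count lies near the share of all genes called higher, and the unevenness was not tested.

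The catalytic head is built from alpha and beta subunits around a central stalk. Atp5b, the beta subunit that holds the catalytic sites, measured 8.64, 8.41 and 8.70 in controls and 9.25, 9.05, 8.78 and 9.33 under the Gata6 KO label. Its groups did not overlap, but the adjusted p was 0.0604 for a change of 0.35, and it passed without array 3 labelled Gata6 KO (adjusted p = 0.0252). Atp5a1, the alpha subunit, measured 8.13, 8.28 and 8.34 in controls and 8.65, 8.40, 8.06 and 8.32 under the Gata6 KO label. Its change was -0.06 (unshifted difference 0.11, SE 0.19, adjusted p = 0.714, limma). The gamma subunit Atp5c1 measured 3.34, 3.57 and 3.11 in controls and 3.01, 2.96, 2.87 and 3.38 under the Gata6 KO label, with a change of -0.45 (SE 0.22, adjusted p = 0.368). Ranges overlapped for both of these genes. The delta subunit Atp5d measured 6.00, 6.06 and 6.05 in controls and 5.54, 4.72, 5.05 and 6.21 under the Gata6 KO label, where array 4 alone reached the control level, and its change was -0.82 (SE 0.29, adjusted p = 0.114). It passed as lower without that array (adjusted p = 0.0105) or once arrays were centred (adjusted p = 0.0404), while its second probe set gave 4.92, 5.06 and 4.93 in controls and 5.28, 4.92, 4.94 and 5.72 under the Gata6 KO label. Atp5e, the epsilon subunit of the central stalk, measured 4.77, 4.91 and 4.85 in controls and 6.50, 6.49, 6.41 and 5.79 under the Gata6 KO label. The groups were well apart, the change was 1.29 (SE 0.22, adjusted p = 0.000356), and the second probe set also separated them (unshifted difference 0.95, SE 0.19, adjusted p = 0.0097).

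The c ring turns as protons pass. Its identical mature protein is encoded by 3 genes that differ in their import signals. Atp5g3 measured 4.18, 3.72 and 3.66 in controls and 5.39, 5.26, 5.37 and 5.39 under the Gata6 KO label, with a change of 1.33 (SE 0.20, adjusted p = 0.000163). Atp5g1 measured 1.30, 1.63 and 1.94 in controls and 3.04, 3.06, 2.51 and 3.23 under the Gata6 KO label, with a change of 1.17 (SE 0.24, adjusted p = 0.00127). Both genes were higher on every array labelled Gata6 KO. Atp5g2 measured 8.51, 8.43 and 8.22 in controls and 8.21, 7.65, 7.87 and 8.99 under the Gata6 KO label, with array 4 above the highest control value, arrays 1 to 3 below the lowest, and a change of -0.37 (SE 0.27, adjusted p = 0.614). Whether the 3 genes differ in their change was not tested.

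The peripheral stalk holds the head still. Atp5pb, its b subunit, measured 5.11, 5.48 and 5.22 in controls and 7.49, 7.28, 7.12 and 6.90 under the Gata6 KO label. The highest control value lay more than 1.3 below the lowest value labelled Gata6 KO, and the change was 1.76 (SE 0.21, adjusted p = 2.31e-05), or 3.38-fold. Atp5j, coupling factor 6, measured 3.61, 4.14 and 3.88 in controls and 4.55, 4.26, 4.46 and 4.76 under the Gata6 KO label, with a change of 0.46 (SE 0.21, adjusted p = 0.046). That call was lost in 13 of 19 alternatives, centring included, with adjusted p from 0.0277 to 0.240 (limma). It did not pass without any one of control arrays 1, 2 or 3 or arrays 1, 3 or 4 labelled Gata6 KO. Atp5h measured 8.66, 8.50 and 8.39 in controls and 8.46, 8.24, 7.99 and 8.49 under the Gata6 KO label. Its change was -0.39 (unshifted difference -0.22, SE 0.19, adjusted p = 0.425, limma). Atp5o is the OSCP subunit that joins stalk and head. It measured 3.55, 4.00 and 4.07 in controls and 3.29, 4.18, 3.85 and 4.24 under the Gata6 KO label. Its change was -0.15 (unshifted difference 0.017, SE 0.26, adjusted p = 0.969, limma). Neither Atp5h nor Atp5o passed. Atp5h passed as lower after quantile normalization (adjusted p = 0.0111), and the sign of the unshifted Atp5o difference changed with the scaling.

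The small membrane subunits help dimers of the synthase form and bend the cristae. Atp5mpl, a short proteolipid, measured 4.28, 4.01 and 3.18 in controls and 6.30, 6.32, 6.17 and 6.29 under the Gata6 KO label. Arrays labelled Gata6 KO agreed within 0.2, control array 3 was lowest, and the change was 2.28 (SE 0.25, adjusted p = 1.56e-05), or 4.87-fold. Atp5k, subunit e, measured 4.91, 4.73 and 4.92 in controls and 6.76, 6.71, 6.70 and 6.26 under the Gata6 KO label, with array 4 below the other three and a change of 1.59 (SE 0.20, adjusted p = 3.94e-05). Atp5l, subunit g, measured 5.65, 5.87 and 4.34 in controls and 6.64, 6.84, 6.63 and 6.90 under the Gata6 KO label. Control array 3 stood well below the other controls for Atp5l, the change was 1.30 (SE 0.30, adjusted p = 0.00314), and without that array the unshifted difference was 1.00. Atp5md, which encodes the DAPIT protein, measured 7.36, 7.68 and 7.19 in controls and 8.49, 8.23, 8.28 and 8.16 under the Gata6 KO label, with a change of 0.71 (SE 0.19, adjusted p = 0.00434). Its call was lost after centring (adjusted p = 0.0519) and after quantile normalization (adjusted p = 0.0912). Atp5j2, subunit f, measured 1.13, 1.42 and 1.27 in controls and 1.47, 1.12, 2.51 and 2.41 under the Gata6 KO label and did not pass (adjusted p = 0.158, limma). The pseudogene Atp5c1-ps stayed between 0.34 and 1.51. Both passed as higher without array 2 labelled Gata6 KO (adjusted p = 0.0382 and 0.0278).

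Members were then set beside all genes by their mean signal over all 7 arrays. Since that mean includes both groups, a gene can enter a range through 1 group, as Cox7b did, and the counts describe the ranges only. Of 32 members with a mean log2 signal of 3 to 8, 20 rose and 1 fell, against 22.5% of all genes in that range called higher and 13.8% lower. Of 6 members at 8 or more, 0 rose and 2 fell (unadjusted p under 0.05 for 3 of them). Among 209 genes at that level 46.4% were called higher and 13.4% lower, and 69.9% had an unadjusted p under 0.05. Below 3, 3 of 11 rose, against 14.0% of all genes there. Across the 49 members Pearson's r between control signal and difference was -0.23, and across all genes -0.21; genes are not independent replicates, and the difference contains the control signal.

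**Figure D4:**
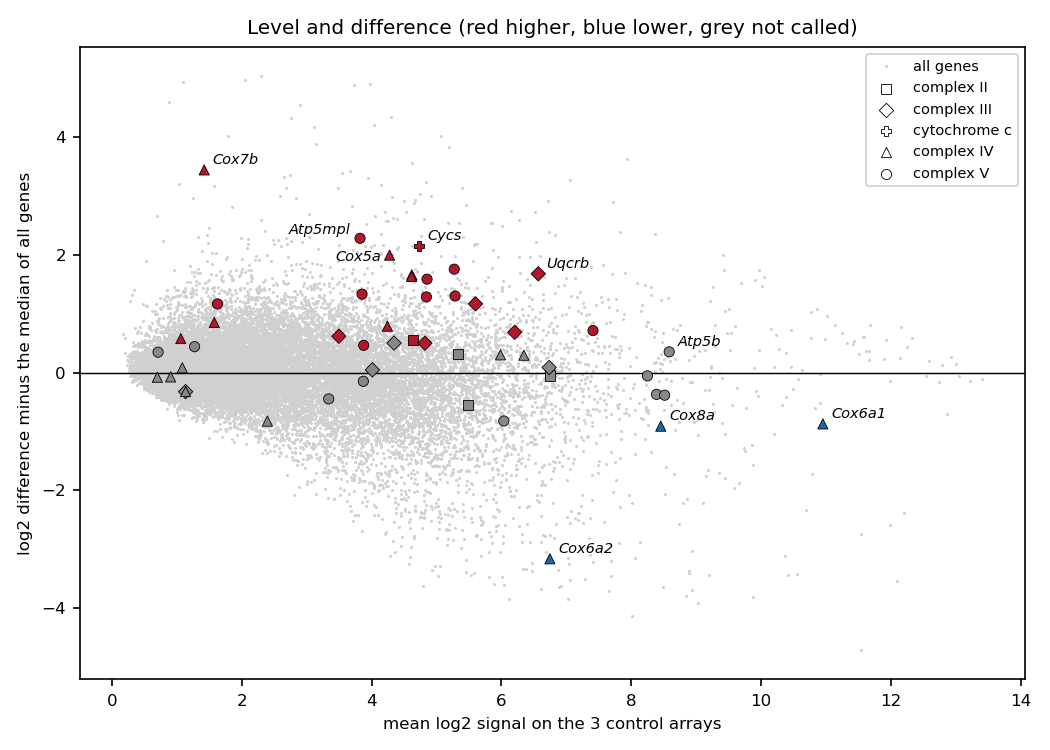
Mean log2 signal on the 3 control arrays (x) against the log2 difference minus the median of all genes (y), with all genes in light grey and members by complex. Members that rose lie mostly at control signals between 3 and 8, while the 6 members with a mean signal of 8 or more include Cox8a and Cox6a1, which fell.

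Genes that build or serve these complexes were counted from lists, and no list was tested as a set. Over all genes 17.4% were called higher and 7.36% lower, and several of the list counts lie near these shares. Of 19 assembly factors of complex IV 6 rose and 1 fell, with a median change of 0.23. Higd1a, which binds the oxidase in low oxygen, changed by 1.67 (SE 0.22, adjusted p = 6.93e-05), Pet100 by 1.67 (SE 0.28, adjusted p = 0.000394) and the copper chaperones Cox19 and Cox17 by 0.99 (SE 0.20, adjusted p = 0.00114) and 0.67 (SE 0.21, adjusted p = 0.00951). Cox20, a chaperone of the mitochondrially encoded subunit COX2, changed by 0.88 (SE 0.24, adjusted p = 0.00635), and the assembly factor Coa7 by 0.68 (SE 0.23, adjusted p = 0.0145). Cox15, an enzyme of heme a synthesis, changed by -0.89 (SE 0.21, adjusted p = 0.0207). Of 6 assembly factors of complex III 2 rose, Uqcc1 by 1.20 (SE 0.25, adjusted p = 0.00142) and Uqcc2 by 0.94 (SE 0.24, adjusted p = 0.00448). For complex II 1 of 4 rose, Sdhaf4, by 1.45 (SE 0.21, adjusted p = 0.000108). On the complex V list, which includes the member Atp5md, 1 rose and 1 fell of 5. The gene that fell was Atpif1, the inhibitor that stops the synthase from running backwards, with -1.20 (SE 0.22, adjusted p = 0.00412).

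Around cytochrome c, 2 of 5 genes rose and 1 fell. Aifm1, a flavoprotein of the intermembrane space, changed by 1.06 (SE 0.19, adjusted p = 0.000479), and its import partner Chchd4 by -0.83 (SE 0.21, adjusted p = 0.0324). Gfer, the sulfhydryl oxidase that reoxidises Chchd4 and passes electrons to cytochrome c, changed by 0.75 (SE 0.29, adjusted p = 0.0323). Hccs, which attaches heme to cytochrome c, changed by 0.07 (SE 0.21, adjusted p = 0.430) and did not pass. In the list of cytochrome c in apoptosis 2 of 9 rose, the BCL2 family member Mcl1 by 0.77 (SE 0.24, adjusted p = 0.0125) and the caspase inhibitor Xiap by 0.53 (SE 0.21, adjusted p = 0.0251). Of 8 exchange proteins 2 rose, the ADP/ATP carrier Slc25a5 by 0.70 (SE 0.18, adjusted p = 0.00325) and the outer membrane channel Vdac3 by 0.83 (SE 0.24, adjusted p = 0.00913). Among 13 regulators of respiratory genes 2 rose, near the 17.4% of all genes called higher. They were the transcription factor Yy1 by 0.65 (SE 0.18, adjusted p = 0.00543) and the mitochondrial rRNA methyltransferase Tfb1m by 0.75 (SE 0.26, adjusted p = 0.0204). All 13 regulators had positive unshifted differences, 11 of them above the median of all genes, and the median change of this list was 0.33. For 6 all values labelled Gata6 KO lay above all control values, against 24.4% of all genes. The motif-binding factors Nrf1, Gabpa and Esrra had changes of 0.38 (SE 0.22, adjusted p = 0.0888), 0.11 (SE 0.19, adjusted p = 0.311) and 0.12 (SE 0.20, adjusted p = 0.315), and none of these passed. Mitochondrially encoded subunits were not analysed here.

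Arrays within a group did not contribute equally. Control array 3 was the lowest control for 12 of the 23 members that rose, and array 4 was the lowest labelled Gata6 KO for 11. Averaged over these 23 genes, which were chosen by this difference, controls read 4.35, 4.41 and 4.12 and the others 5.85, 5.83, 5.78 and 5.62. Control array 3 and array 3 labelled Gata6 KO also had low Xist, the RNA made from the inactive X chromosome of females (1.34 and 2.15, against 5.02 to 5.60 on the other arrays). With Xist class as a block 23 members were called higher and 3 lower, and on the 5 arrays with high Xist 20 and 2.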

How the data were processed

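Islet RNA of 7 arrays, each a pool of 3 mice, was compared; 3 arrays were control and 4 were labelled Gata6 KO, grouped by their labels. The authors deposited log2 signals per probe set, made with RMA in Transcriptome Analysis Console, per the submitters' processing notes; scanner files were not used here. RMA background-corrects and quantile-normalizes, which compresses changes at low signal. Of 41345 probe sets 23521 had 1 gene symbol in the platform annotation, 1814 had several and 16010 are unnamed here. Each of 22180 genes was taken from its probe set with the highest mean over the arrays. Differences were fitted with limma 3.58.1 in R 4.3.3 (lmFit, eBayes with trend, two-sided), adjusted by Benjamini-Hochberg over all genes and called under 0.05. The number of arrays limits the precision. Whether the pools share mice, litters or days is not stated, so p-values measure the spread between these arrays, which may be technical.

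All members are named. Of each pathway list up to 4 genes with the smallest p are named; Cox17, Coa7, Cox15, the motif-binding factors and 3 muscle markers were named after their values were seen. The members and lists were chosen with earlier results of these data known. Alternatives covered scaling, filters, probe sets, variance models, blocks and each array left out. The fit on the 5 arrays with high Xist was chosen after seeing the data. Scripts were tested on simulated data. Figures were drawn with matplotlib 3.10.9.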

Additional observations from a re-analysis of the deposited data

Results flagged for a closer look

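Within the 4 arrays labelled Gata6 KO, 1 array stood apart from the other three by Dixon's criterion (the gap to the next value as a share of the range) for 7 members, a criterion that chance meets in about 1 of 20 groups. Array 4 was low for 4 of them, with a log2 signal of 5.79 for Atp5e, 6.26 for Atp5k, 4.19 for Cox7b and 6.67 for Cycs. These values were still above every control value of the same gene. Atp5g3 was low on array 2 at 5.26, in a group that spanned less than 0.2. Cox7a2 was high on array 1 at 6.76, and Uqcrh was high on array 3 at 7.45.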

How the results depend on the processing

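Of the 23 members called higher 16 kept that call in every alternative run that included them, and of the 3 called lower only Cox6a2 did. Of the 16, Atp5g1, Cox4i2 and Cox7b were in 18 of the 19 alternatives. They were not among the 25% of genes with the highest mean and so were left out of that run. Every run with Cox7b used the probe set that is high under the Gata6 KO label, alone or averaged with the other. No alternative rested on the other Cox7b probe set alone, which was not called, so the kept call does not speak to that choice. Lower calls numbered 5 after centring, 7 after quantile normalization, 5 with the replicate number as a block and 1 at an adjusted p under 0.01, and from 1 to 4 with 1 array left out. The members' median difference was 0.36 after centring, against 0.61 as deposited. With the replicate block 23 members were called higher. Deviations of same-numbered arrays correlated at 0.0976, 0.00432 and 0.115, and array 4 labelled Gata6 KO has no partner. Control arrays 1 and 3 each correlated best with the array of the same number, and control array 2 with array 3 labelled Gata6 KO (0.0221). These values are small and do not settle whether the numbers pair the arrays.

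Unshifted differences turned negative for members that were not called. After centring these were Atp5a1 (-0.14), Atp5o (-0.23), Cox7b2 (-0.16), Cox8c (-0.15), Sdha (-0.13) and Uqcrfs1 (-0.034). After quantile normalization they were Atp5a1 (-0.31), Atp5o (-0.16), Cox7b2 (-0.017), Cox8c (-0.035), Sdha (-0.26) and Uqcrc1 (-0.14). Atp5o was also negative with the replicate block (-0.10) and without control array 1 (-0.15), array 2 labelled Gata6 KO (-0.08) or array 4 labelled Gata6 KO (-0.10), and Sdha without array 1 labelled Gata6 KO (-0.020). With 1 array left out the difference of Atp5o ran up to 0.22 and that of Sdha up to 0.27. Beyond centring, which subtracts 1 value per array from every gene, the cause was not tested. Background was not measured here, so how far low signals lie above it is not known.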
